A study of Mus musculus with 18 samples.

Results

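Among the 14348 mouse genes with a count in all 9 Ribo-seq libraries of E15.5 cerebral cortex, 185 were microRNA genes. They were chosen by symbol alone, as genes whose symbol begins with *Mir* or *Mirlet* followed by a digit and is not that of a host transcript. The table lists 1180 microRNA genes in all, of which 995 have blank counts and were not members. Why a gene was left blank is not stated in the sources used here, and 56 of the 995 had an RPKM value above 0 in all 9 libraries. Of the 185 members, 184 are annotated as microRNA genes in RefSeq, and 10 had a count of 0 in at least 1 library.

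microRNAs are short regulatory RNAs. A primary transcript is cut in the nucleus by Drosha and Dgcr8, the hairpin is exported by Xpo5 and trimmed by Dicer1, and the mature strand guides an Argonaute protein to messenger RNAs that pair with its seed. In the developing cortex miR-9 and miR-124 are known for neurogenesis and neuronal identity, let-7 for the timing of differentiation, and the miR-17-92 family for progenitor proliferation. Mettl3 writes N6-methyladenosine (m6A) on RNA, including on primary microRNA transcripts, and Fto removes it. microRNAs are not translated, so a fragment counted at a microRNA gene is given below as abundance among the purified short fragments and not as translation.

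The study profiled cerebral cortex labelled C57BL/6 of 3 genotypes at embryonic day 15.5. Ctrl mice were wild type, *M*-cKO mice carried *Mettl3* f/f with *Emx1*-cre, and *F*-cKO mice carried *Fto* f/f with *Emx1*-cre, per the labels. *Emx1*-cre acts in the dorsal forebrain lineage, so vessels, meninges and immigrant cells of the dissected cortex keep both genes. The floxed lines had a mixed C57/BL6 and 129 background, per the study's methods. Each genotype had 3 Ribo-seq and 3 RNA-seq libraries, labelled as biological repeats. Whether a library pools several embryos is not stated. The methods can be read as saying that the 3 Ribo-seq cortices of a genotype came from a single litter. In that case p-values cover the spread within litters alone. Where the litters differed between genotypes, litter and genotype cannot be told apart. In these bulk samples fewer cells of a type and less RNA per cell cannot be told apart.

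The Ribo-seq libraries held 13764136 to 21725348 counted fragments in *M*-cKO, 30081796 to 35853227 in Ctrl and 10973699 to 32954317 in *F*-cKO, so the *M*-cKO libraries were all shallower than Ctrl. The RNA-seq libraries held 18504094 to 22592406 counted reads. The cortex genes *Sox2*, *Pax6*, *Eomes*, *Neurod6*, *Tbr1* and *Emx1* were detected in all 18 libraries. CPM (the count of a gene per 1000000 counted fragments of its library) of *Mettl3* in Ribo-seq were 38.6, 39.3 and 40.01 in Ctrl and 27.1, 26.95 and 28.2 in *M*-cKO (log2 fold change -0.55 ± 0.095, edgeR adjusted p = 0.0157), whereas its RNA-seq CPM were 29.95, 33.5 and 26.05 in Ctrl and 43.9, 40.6 and 42.2 in *M*-cKO (0.50 ± 0.093, edgeR adjusted p = 0.00221). Ribo-seq CPM of *Fto* were 279.6, 239.8 and 182 in Ctrl and 39.3, 25.2 and 43.9 in *F*-cKO (-2.67 ± 0.25, edgeR adjusted p = 0.35), and its RNA-seq CPM were 143, 149 and 110.3 in Ctrl and 41.7, 98.8 and 32.2 in *F*-cKO (-1.21 ± 0.33, edgeR adjusted p = 0.0298). Only some exons of each gene are deleted, so whole-gene counts check the labels in part. *Fto* was lower in all *F*-cKO libraries of both assays, and *Mettl3* was lower in Ribo-seq and higher in RNA-seq of *M*-cKO.

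Ribo-seq library 2 of *F*-cKO stood apart from the other 8. Its CPM was 60.5 for *Cldn5*, a gene of brain endothelium, against 3.15 to 5.83 in the others, and 22.9 for *Csf1r*, a microglial receptor gene, against 1.34 to 5.04. These messenger RNA markers were looked up after the data were seen. Results that rest on this library are given with and without it.

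The fragments purified for Ribo-seq were 20 to 38 nt long per the labels, and the mature sequences of the members have a median length of 22 nt. RefSeq (GRCm38.p6) held mature sequences for 171 members, 315 in all, of which 309 fall inside that window. The deposited counts do not say from which arm of a hairpin a fragment came, nor how long it was. Sequences are printed for the seed families that the results turn on, with the seed, bases 2 to 8, in capitals. The first set holds families whose members all rose in *M*-cKO or nearly so.
miR-99a-5p: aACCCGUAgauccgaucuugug
miR-99b-5p: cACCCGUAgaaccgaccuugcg
miR-128-3p: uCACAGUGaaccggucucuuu
miR-130a-3p: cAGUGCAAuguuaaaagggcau
miR-130b-3p: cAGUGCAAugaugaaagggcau
miR-301a-3p: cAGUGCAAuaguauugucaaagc
miR-181a-5p: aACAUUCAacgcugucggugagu
miR-181c-5p: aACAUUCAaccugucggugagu
miR-181d-5p: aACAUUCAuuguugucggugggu
miR-379-3p: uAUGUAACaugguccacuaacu
miR-411-3p: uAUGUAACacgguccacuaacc

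The next set holds the microRNAs with the smallest adjusted p in *M*-cKO, shown as both arms where RefSeq lists both.
miR-652-5p: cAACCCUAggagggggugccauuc
miR-652-3p: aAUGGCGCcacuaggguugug
miR-495-5p: gAAGUUGCccauguuauuuuucg
miR-495-3p: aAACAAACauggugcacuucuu
miR-325-5p: cCUAGUAGgugcucaguaagugu
miR-325-3p: uUUAUUGAgcaccuccuaucaa
miR-676-3p: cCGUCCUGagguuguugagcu

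The last set holds abundant seed families with no member called in *M*-cKO, for contrast.
let-7g-5p: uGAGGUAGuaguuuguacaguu
let-7f-5p: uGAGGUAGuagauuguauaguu
miR-98-5p: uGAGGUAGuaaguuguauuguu
miR-148a-3p: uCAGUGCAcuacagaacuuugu
miR-148b-3p: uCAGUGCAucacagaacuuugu
miR-152-3p: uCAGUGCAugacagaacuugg
miR-221-3p: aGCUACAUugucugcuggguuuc
miR-222-3p: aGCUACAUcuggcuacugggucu

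Members together took 1.79%, 2.31% and 1.01% of counted Ribo-seq fragments in Ctrl, 5.25%, 6.75% and 2.16% in *M*-cKO, with 1.07%, 1.38% and 1.48% in *F*-cKO. The Wilson 95% interval of each share was within 0.0133 percentage points, which covers counting error only. The means were 1.70% ± 0.65 (SD, n = 3) in Ctrl, 4.72% ± 2.34 (SD, n = 3) in *M*-cKO and 1.31% ± 0.21 (SD, n = 3) in *F*-cKO. The *M*-cKO mean was 2.77 times the Ctrl mean, but *M*-cKO library 3 lay below Ctrl library 2, so these groups overlapped. All *M*-cKO shares lay above all *F*-cKO shares. Without *Mir99a*, the member with most fragments, the mean shares were 1.24% in Ctrl and 2.77% in *M*-cKO, a ratio of 2.24, and the groups overlapped as before. These shares are descriptions and carry no test.

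snoRNA genes, which guide chemical modification of ribosomal RNA are another class of short noncoding RNA in these libraries. The 97 snoRNA genes took 1.11%, 1.09% and 1.43% of fragments in Ctrl, 3.46%, 2.64% and 2.10% in *M*-cKO, with 3.14%, 2.22% and 1.54% in *F*-cKO, so both knockouts lay wholly above Ctrl. Per snoRNA fragment there were 1.62, 2.12 and 0.709 microRNA fragments in Ctrl, 1.52, 2.56 and 1.03 in *M*-cKO, with 0.342, 0.622 and 0.961 in *F*-cKO. The ratio in *M*-cKO (mean 1.70 ± 0.79, SD, n = 3) overlapped that in Ctrl (1.48 ± 0.72), and both had means above that of *F*-cKO (0.642 ± 0.310). Without the top member and the top snoRNA gene the means were 1.41, 1.33 and 0.728, so that of *M*-cKO lay below that of Ctrl, and *M*-cKO overlapped *F*-cKO, which it did not before. The part of the snoRNA shift in the microRNA values was not tested.

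**Figure D1:**
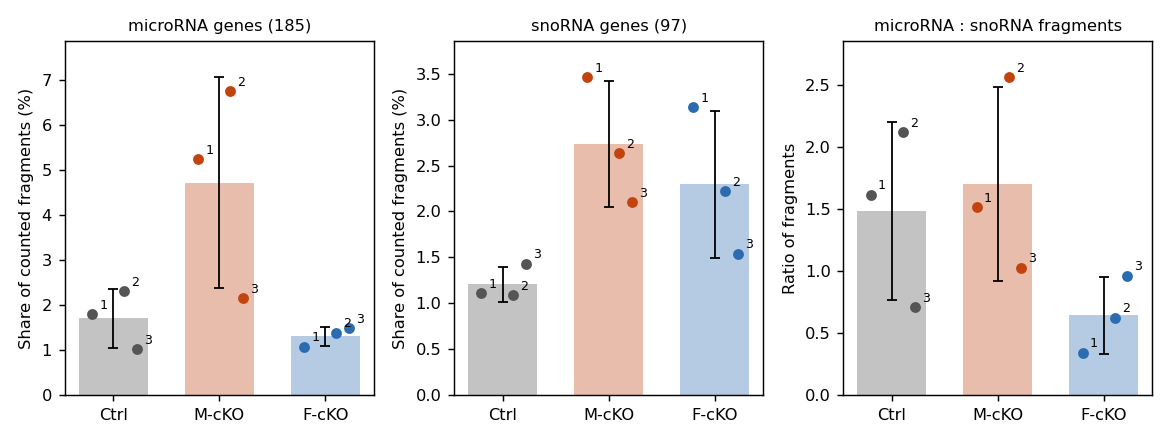
Share of counted Ribo-seq fragments in the 185 microRNA genes (left, %), in 97 snoRNA genes (middle, %) and the ratio of the classes (right), by genotype. Bars are means of 3 libraries, error bars are SD, and points are libraries with their replicate numbers: the microRNA share of *M*-cKO library 3 (2.16%) sits below that of Ctrl library 2 (2.31%).

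A few loci held most of the fragments. The 12 most abundant members took 73.7% to 87.7% of member fragments in each library. *Mir99a* (chr16:77598936-77599000, no host gene on its strand), of the miR-99/100 family that is known to target the mTOR pathway, alone took 18.8% to 32.3% in Ctrl, 37.9% to 44.9% in *M*-cKO and 20.4% to 22.8% in *F*-cKO. Its share among members was thus higher in every *M*-cKO library than in any other. Per length it was also the highest on average in Ctrl and *M*-cKO and lay below *Mir5099* in *F*-cKO, with a mean deposited RPKM of 87119 in Ctrl, 356161 in *M*-cKO and 51905 in *F*-cKO, followed by *Mir5099* with 75855, 134248 and 67878.

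CPM of *Mir99a* were 3355, 7446 and 3216 in Ctrl, 23039.6, 25625 and 9677 in *M*-cKO, with 2323, 2815 and 3376 in *F*-cKO, so *M*-cKO lay wholly above both other groups. *Mir128-1* (chr1:128202361-128202430, within *R3hdm1*), whose product is enriched in neurons, had CPM of 611, 1113 and 491 in Ctrl, 2874, 2396 and 1347 in *M*-cKO, with 152, 585 and 453 in *F*-cKO. *Mir99b* (chr17:17830188-17830257, within *Spaca6*), with the seed of *Mir99a*, had 174, 266 and 144 in Ctrl, 2139, 2868 and 601 in *M*-cKO, with 148, 124 and 124 in *F*-cKO. For *Mir128-1* and *Mir99b*, too, every *M*-cKO library lay above every Ctrl and *F*-cKO library.

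By contrast, *Mir143*, a microRNA of smooth muscle and mesenchymal cells, had CPM of 839, 912 and 326 in Ctrl and 339, 2548 and 198 in *M*-cKO. *Mir221*, an X-linked microRNA known to repress the cell-cycle inhibitor *Cdkn1b*, had 527, 621 and 121 in Ctrl and 179, 2067 and 195 in *M*-cKO. *Mirlet7g*, of the let-7 family, had 776, 1004 and 290.0 in Ctrl and 976, 2096 and 577 in *M*-cKO. For *Mir143*, *Mir221* and *Mirlet7g* only *M*-cKO library 2 exceeded every Ctrl library, and the groups overlapped. Of the 12, *Mir99a*, *Mir128-1*, *Mir99b*, *Mir381* and *Mir181d* passed the test below, and *Mir5099*, *Mir148a*, *Mirlet7g*, *Mir143*, *Mir221*, *Mir30a* and *Mir151* did not.

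**Figure D2:**
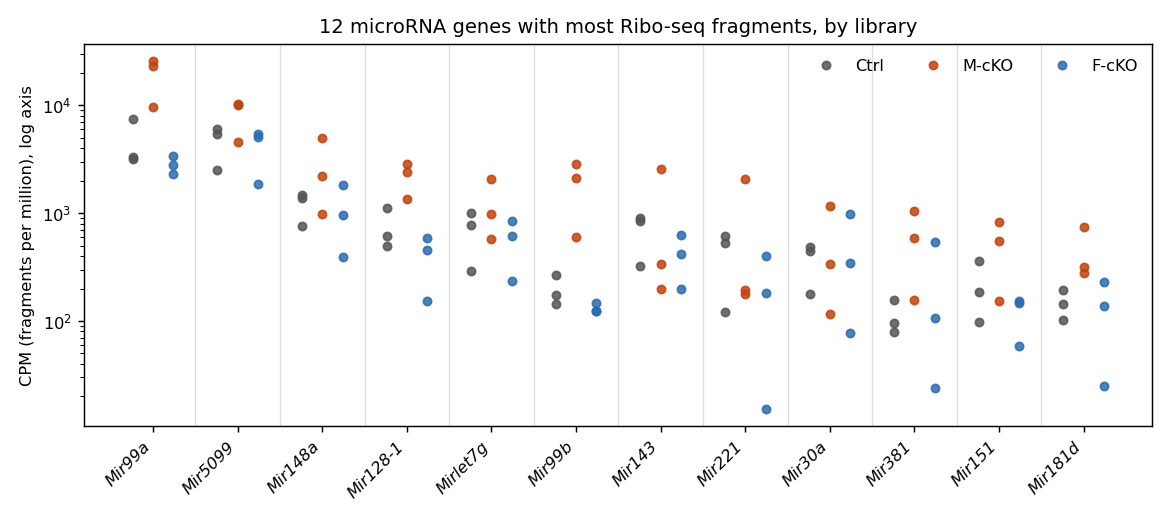
Ribo-seq CPM (log axis) of the 12 microRNA genes with most fragments, 1 point per library, with 3 libraries for each genotype. *Mir99a*, *Mir128-1*, *Mir99b* and *Mir181d* of *M*-cKO lie above every Ctrl point, while *Mir143* of *M*-cKO spreads from below to above Ctrl and *Mir221* from within to above it.

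To ask which microRNA genes differed with loss of *Mettl3*, *M*-cKO was compared to Ctrl with edgeR's quasi-likelihood test over all 14314 genes that passed the filter on low counts, with p adjusted by Benjamini-Hochberg. Of the 183 members tested, 53 rose and 0 fell at an adjusted p below 0.05. That is 29.0% of members, against 7.13% of all genes that rose and 7.5% that fell. The 53 had log2 fold changes of 1.14 to 4.57 with a median of 2.51. Of all 183, 159 had a positive value, with a median of 1.16 against -0.00028 for all genes tested, and at an unadjusted p below 0.05 there were 76 higher (16.6% of all genes were) and 2 lower (17.5% of all genes). Members not tested were *Mir3059* and *Mir302a*, whose counts were too low. DESeq2 called 69 up, against 11.2% of all genes, and 2 down.

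The count of 53 depended strongly on which libraries entered. It was 11 without Ctrl library 1, 15 without Ctrl library 2, 16 without Ctrl library 3, 24 without *M*-cKO library 1, 36 without *M*-cKO library 2 and 90 without *M*-cKO library 3, all up, while the genes that rose over the whole table were 230, 115, 269, 500, 771 and 1303. With all 9 libraries in 1 fit, 7 of 182 members rose (3.85%), among 29 genes of the whole table (0.202%). The median over members was 0.77 with 122 positive without *M*-cKO library 2, and 1.04 to 1.58 with 152 to 169 positive without any other 1 library.

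The values by library gave a similar picture without a model. In 55 members (29.7%) every *M*-cKO library lay above every Ctrl library, against 20.1% of all genes. In 2 members (1.08%), *Mir15a* and *Mir7243*, every *M*-cKO library lay below, against 16.4% of all genes. Of the 53 called, 49 were wholly above Ctrl, and the others were *Mir128-2*, *Mir744*, *Mir335* and *Mir484*. Among all 9 libraries the highest value of a member was in *M*-cKO library 2 for 94 members, in *M*-cKO library 1 for 47, in *F*-cKO library 2 for 30 and in *M*-cKO library 3 for none. *M*-cKO library 3, the closest to Ctrl, was also that with the lowest microRNA share of its group.

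Among other classes fitted together with the members, 47 of 96 snoRNA genes rose and 1 fell (median log2 fold change 1.46). For long noncoding RNA genes 19 of 401 rose and 34 fell, and for protein-coding genes 788 of 12810 rose and 1004 fell. The median log2 fold changes of these last classes were -0.078 and -0.022.

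**Figure D3:**
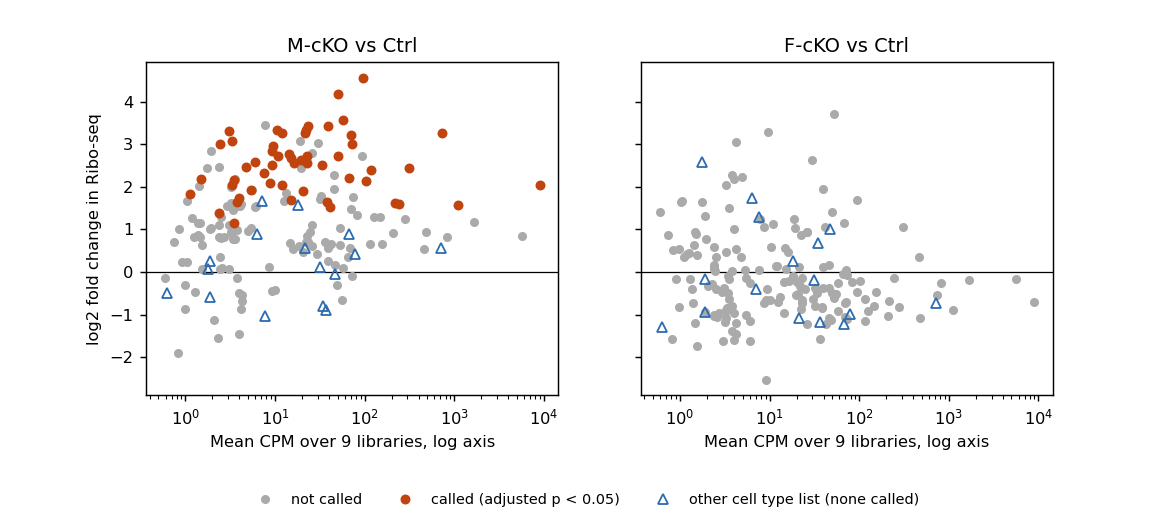
Ribo-seq log2 fold change of each tested microRNA gene against its mean CPM over 9 libraries (log axis), for *M*-cKO vs Ctrl (left) and *F*-cKO vs Ctrl (right). Orange points passed an edgeR adjusted p of 0.05 (53 on the left, 0 on the right), grey points did not, and triangles are the 16 members of lists of other cell types, of which 0 passed.

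Of the 8 members with the smallest adjusted p in *M*-cKO, 4 lay on chromosome X (*Mir652*, *Mir325*, *Mir676* and *Mir532*) and 2 on chromosome 12 (*Mir495* and *Mir369*). *Mir652* (chrX:142739000-142739097, within *Tmem164*) had CPM of 3.74, 3.32 and 2.47 in Ctrl, 19.2, 18.2 and 11.05 in *M*-cKO, with 2.09, 5.19 and 2.64 in *F*-cKO (*M*-cKO log2 fold change 2.33 ± 0.28, edgeR adjusted p = 0.0063). *Mir495* (chr12:109718754-109718816), of the imprinted microRNA cluster on chromosome 12, had 5.24, 10.3 and 7.06 in Ctrl, 85.6, 121 and 39.6 in *M*-cKO, with 6.27, 73.5 and 6.49 in *F*-cKO, where library 2 reached the *M*-cKO range (log2 fold change in *M*-cKO 3.43 ± 0.45, edgeR adjusted p = 0.00827). *Mir325* (chrX:105379082-105379179, within the noncoding gene *5330434G04Rik*) had 1.84, 4.16 and 3.199 in Ctrl and 41.04, 31.97 and 16.5 in *M*-cKO (3.27 ± 0.43). In all of these, each *M*-cKO library was above each Ctrl library by several fold.

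*Mir676* (chrX:100381097-100381185, within *Eda*) had CPM of 8.37, 13.03 and 6.05 in Ctrl and 67.8, 58.3 and 36.2 in *M*-cKO, a log2 fold change of 2.56 ± 0.34. *Mir532* (chrX:7248402-7248497, within *Clcn5*) had 46.05, 72.5 and 32.6 in Ctrl and 323, 289 and 191 in *M*-cKO (2.40 ± 0.32). *Mir298* (chr2:174267504-174267585), at the imprinted *Gnas* region, had 3.07, 8.21 and 5.32 in Ctrl and 65.8, 72.4 and 29.8 in *M*-cKO (3.33 ± 0.46). Library 3 was the lowest *M*-cKO library for each of them and still exceeded the highest Ctrl value. *Mir369* (chr12:109743418-109743496, within *Mirg*) gained 2.68 ± 0.37 and *Mir872* (chr4:94665157-94665237, within *Ift74*) gained 2.51 ± 0.35 on the log2 scale. *Mir325*, *Mir676*, *Mir532*, *Mir298* and *Mir872* passed the test in all 12 alternative fits, with adjusted p of at most 0.0453, while *Mir652*, *Mir495* and *Mir369* missed it only in the fit of all 9 libraries (edgeR adjusted p = 0.0666, 0.149 and 0.108).

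Abundant members passed less firmly. *Mir99a* rose by 2.05 ± 0.46 on the log2 scale (edgeR adjusted p = 0.0285), *Mir99b* by 3.26 ± 0.56 (0.0156), *Mir128-1* by 1.57 ± 0.37 (0.0338), *Mir381* by 2.46 ± 0.64 (0.0424) and *Mir181d* by 1.60 ± 0.41 (0.0424). Their calls held in 6, 8, 6, 5 and 6 of 12 alternative fits and their values stayed positive in all. The median standard error over members was 0.63 against 0.16 over all genes, so members were measured less precisely than most genes. The members with the smallest p among those with lower values were *Mir7243* (-1.90 ± 0.54, edgeR adjusted p = 0.0546), *Mir15a* (-1.45 ± 0.51, 0.0893), which is known to target *Bcl2*, and *Mirlet7a-2* (-1.13 ± 0.53, 0.173). None passed with edgeR, and *Mir7243* and *Mir15a* passed with DESeq2.

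Families were then compared by their lists. In the miR-125/99/100 list, 2 of 3 members rose, and summed CPM were 3535, 7722 and 3366 in Ctrl, 25209.7, 28528 and 10287 in *M*-cKO, with 2475, 2945 and 3504 in *F*-cKO. *Mir125b-2*, the other member, had a log2 fold change of 1.66 ± 0.50 (edgeR adjusted p = 0.0617). Both miR-128 genes rose. They share the miR-128-3p sequence printed above, so their separate counts are uncertain. CPM of *Mir128-2*, within *Arpp21*, were 131, 199.8 and 84.4 in Ctrl and 543, 539.9 and 198 in *M*-cKO, where library 3 lay below the highest Ctrl library. The number called in both lists depended on the libraries: 0 members passed in either list without any 1 Ctrl library or in the fit of all 9 libraries, and without *M*-cKO library 1 or 2 only 1 of the miR-125/99/100 list and 0 of the miR-128 list did. Without *M*-cKO library 3, 3 of the miR-125/99/100 list and 2 of the miR-128 list passed. All members of both lists kept positive values in these fits, and without 1 library the median log2 fold change was 1.84 to 2.53 in the miR-125/99/100 list (2.05 with all 6) and 1.35 to 1.97 in the miR-128 list (1.60).

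Of the miR-181 list, *Mir181d*, *Mir181a-2* and *Mir181c* rose by 1.60 ± 0.41, 3.42 ± 0.59 and 2.51 ± 0.39 on the log2 scale, and *Mir181a-1* had 1.85 ± 0.56 (edgeR adjusted p = 0.064). CPM of *Mir181a-2* were 4.63, 7.15 and 5.04 in Ctrl, 67.3, 96.3 and 17.6 in *M*-cKO, with 4.08, 1.82 and 4.097 in *F*-cKO, whereas *Mir181c* had 3.07, 4.02 and 4.09 in Ctrl, 24.9, 28.9 and 10.5 in *M*-cKO and, in *F*-cKO, 2.04, 2.82 and 2.22. In both, *M*-cKO lay wholly above and *F*-cKO wholly below Ctrl. *Mir181a-1* and *Mir181a-2* share the miR-181a-5p sequence, so their separate counts are uncertain. The number called in this list was 0 without Ctrl library 1 or 2 and in the fit of all 9 libraries, 1 without Ctrl library 3, 2 without *M*-cKO library 1, 3 without *M*-cKO library 2 and 4 without *M*-cKO library 3, with positive values throughout and medians of 2.07 to 2.54. In the list of miR-17-92 and its paralogs, 2 of the 3 members rose: *Mir106b* (chr5:138165737-138165818, within *Mcm7*) by 3.00 ± 0.45 and *Mir363* (chrX:52741693-52741767) by 2.78 ± 0.43. CPM of *Mir106b* were 22.8, 28.7 and 15.9 in Ctrl and 255, 206 and 77.4 in *M*-cKO, with no overlap. Members called in this list numbered 0 without Ctrl library 2, and 1 without Ctrl library 1 or in the fit of all 9 libraries. *Mir92-2* had 1.99 ± 0.91 (edgeR adjusted p = 0.166), with CPM of 2.29, 2.16 and 0.824 in Ctrl and 12.3, 7.99 and 0.552 in *M*-cKO, where library 3 lay below Ctrl. The 12 other genes of that list, including all of the *Mir17hg* locus, were not members.

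No member of the let-7 list rose or fell among 5, and their median log2 fold change was 0.11, which turned negative without Ctrl library 1 (-0.14) or *M*-cKO library 1 (-0.21), with 0 called in any of the fits without 1 library. *Mirlet7g* had 0.81 ± 0.55, *Mirlet7f-2* -0.085 ± 0.37 and *Mir98* 0.70 ± 0.53, with edgeR adjusted p of 0.33, 0.888 and 0.38. The neural miR-9 and miR-124 lists had 1 member each. *Mir9-3* had CPM of 8.37, 11.1 and 18.4 in Ctrl and 12.4, 13.2 and 3.13 in *M*-cKO (-0.42 ± 0.54), and *Mir124a-2* had 0.9204, 2.33 and 2.34 and 3.15, 4.504 and 2.35 (0.80 ± 0.42). Neither passed the test, and *Mir9-3* was at 0.0046 without Ctrl library 3 and at 0.014 without *M*-cKO library 3. The other copies of these abundant neural microRNAs had blank counts. The miR-30 list had 0 of 2 and the miR-29 list 0 of 1 members called, and in the list of miR-34 and its relatives *Mir449a*, a microRNA of multiciliated cells, rose by 1.66 ± 0.38 among 4 members, of which 0 passed without any 1 Ctrl library, without *M*-cKO library 1 or 2, or in the fit of all 9 libraries. Without *M*-cKO library 2 the medians of the miR-30 and miR-29 lists turned from 0.62 to -0.54 and from 0.66 to -1.42.

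**Figure D4:**
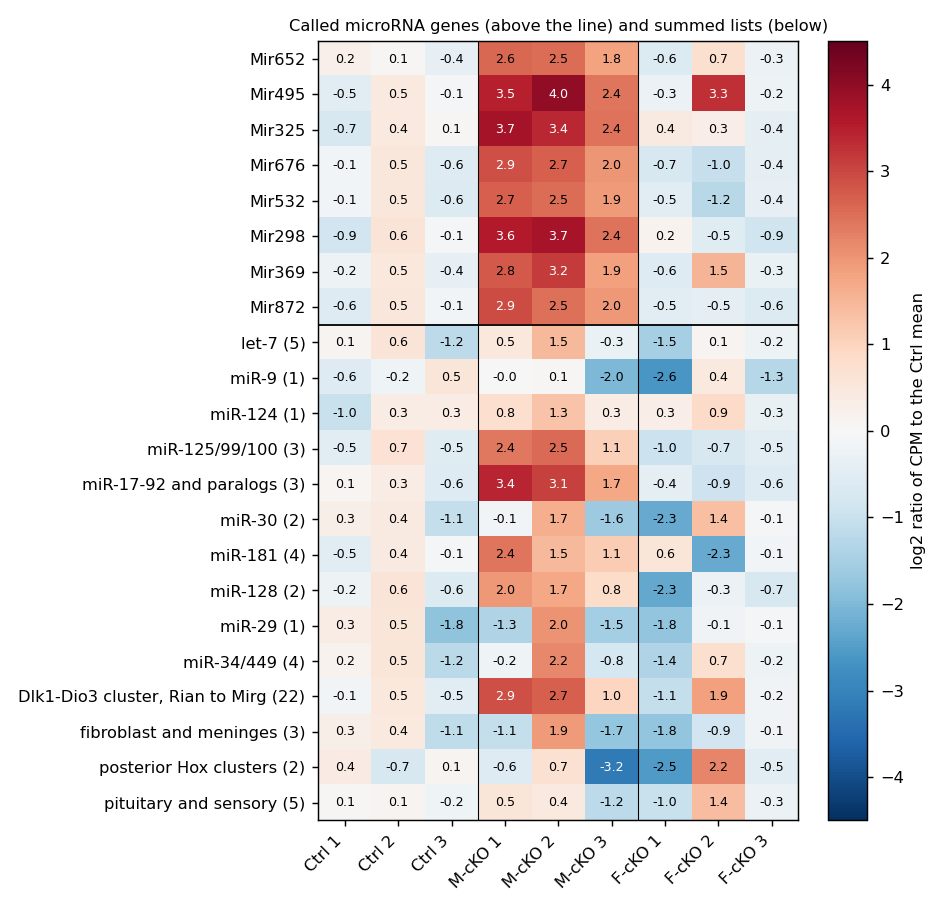
log2 ratio of each library's Ribo-seq CPM to the Ctrl mean, for the 8 microRNA genes with the smallest adjusted p in *M*-cKO (above the line) and for summed CPM of lists (below, number of members in parentheses). Columns are libraries. The 8 genes are positive in all 3 *M*-cKO libraries, and the fibroblast and meninges list is positive in *M*-cKO library 2 and negative in libraries 1 and 3.

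The densest group lay on chromosome 12. In the *Rian* to *Mirg* part of the imprinted Dlk1-Dio3 region, whose microRNAs are expressed from the maternal chromosome and known in placenta and brain, 22 of 43 listed microRNA genes were members and 11 rose. Within it, 20 members from *Mir379* to *Mir369* (chr12:109709060-109743496, GRCm38) lay at gaps under 10000 bp. Of these 11 rose, 19 were positive and the median log2 fold change was 2.44. Their summed CPM were 264, 406 and 212 in Ctrl, 2279.9, 1871 and 589 in *M*-cKO, with 142, 1103 and 262 in *F*-cKO. All *M*-cKO sums exceeded all Ctrl sums, and *F*-cKO library 2 exceeded *M*-cKO library 3.

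Across the cluster *Mir543* had the largest value (3.56 ± 0.53), with CPM of 9.68, 20.3 and 8.27 in Ctrl, 139, 245 and 69.4 in *M*-cKO, with 9.53, 9.84 and 11.9 in *F*-cKO. *Mir379* rose by 2.22 ± 0.51 and *Mir411*, with the same 3p seed, by 2.72 ± 0.52, whereas *Mir654* had -0.14 ± 0.91. The number called in the cluster was 2 without Ctrl library 1, 3 without Ctrl library 2 or 3, 5 without *M*-cKO library 1, 8 without *M*-cKO library 2, 14 without *M*-cKO library 3 and 1 in the fit of all 9 libraries, with medians of 1.91 to 2.85. In *F*-cKO the median over the cluster was 0.96 with 15 of 20 positive and 0 called, and without *F*-cKO library 2 it was -0.48 with 1 positive.

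**Figure D5:**
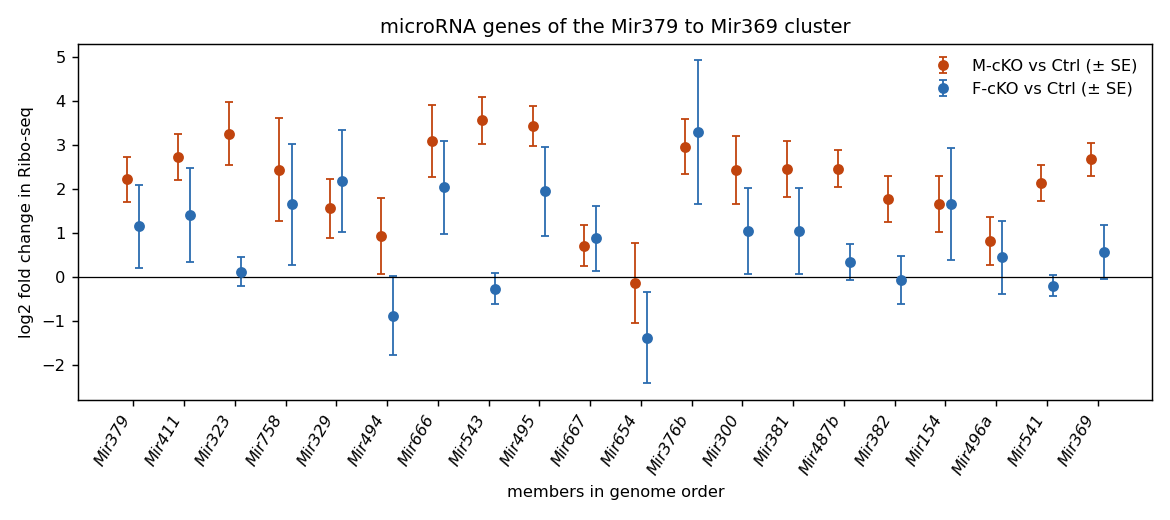
log2 fold change in Ribo-seq (± SE) of the 20 microRNA genes of the *Mir379* to *Mir369* cluster, in genome order, for *M*-cKO vs Ctrl and *F*-cKO vs Ctrl. All *M*-cKO values except that of *Mir654* are positive, and the *F*-cKO values have wide errors.

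Members named here for their position, size or seed were picked with their values seen. *Mir674* had the largest value of all called members (4.57 ± 1.05), with CPM of 8.03, 13.1 and 12.2 in Ctrl, 140.3, 635 and 26.5 in *M*-cKO, with 7.10, 11.8 and 4.98 in *F*-cKO. Every *M*-cKO library exceeded every other library. Over all members 53 of 183 rose and 159 were positive, with a median of 1.16. On chromosome X 10 of 28 members rose and 27 were positive (median 1.42), among them *Mir652*, *Mir325*, *Mir676* and *Mir532*. The number called there was 5 without Ctrl library 1 or 3, 6 without Ctrl library 2, 7 without *M*-cKO library 1 or 2, 15 without *M*-cKO library 3 and 3 in the fit of all 9 libraries, and without *M*-cKO library 2 the median was 0.997 with 20 positive. In the *Mir500* to *Mir532* group (chrX:7237683-7248497, 4 members) *Mir501* and *Mir532* rose. In the *Mir450b* to *Mir322* group (chrX:53047997-53054349, 5 members) only *Mir322*, of the miR-15/16 seed family, rose (2.85 ± 0.53). On chromosome 16 the neighbours *Mir130b* and *Mir301b* rose by 4.17 ± 0.92 and 3.31 ± 0.54, and CPM of *Mir130b* were 5.38, 11.2 and 6.05 in Ctrl and 93.7, 298 and 19.2 in *M*-cKO. *Mir212* rose (1.73 ± 0.35) while its neighbour *Mir132* had 0.42 ± 0.70, both microRNAs known for their induction by neuronal activity. *Mir16-1* rose (1.38 ± 0.32) beside *Mir15a*, which did not pass with edgeR. Chromosome 12 had 12 of 29 members called and chromosome X 10 of 28, which leaves 31 of the 53 on the other chromosomes, 0 to 6 on each.

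Shared seeds were examined next, since microRNAs with 1 seed have overlapping sets of targets. Seeds held by at least 2 members numbered 34 and involved 65 members, counting both arms. In 28 of them all members had positive log2 fold changes in *M*-cKO, in 4 none and in 2 both signs occurred. Of all tested members 159 of 183 were positive. Some pairs also enter through both arms or share a mature sequence, so nothing about seeds is read from these counts. All members rose for *Mir99a* with *Mir99b*, *Mir128-1* with *Mir128-2*, *Mir379* with *Mir411*, *Mir301* with *Mir301b*, and *Mir130a*, *Mir130b* and *Mir301*. Those last had 2.04 ± 0.42, 4.17 ± 0.92 and 2.58 ± 0.51, and the AGUGCAA seed they share is printed above. The groups with no positive value were *Mir200b* with *Mir200c* and *Mir200a* with *Mir200b*, microRNAs of epithelia, *Mir10a* with *Mir10b*, of the Hox clusters, and *Mir218-1* with *Mir218-2*, of the *Slit* gene introns. Of those none passed the test.

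Whether fragments that match several loci were kept is not stated, so members that share a mature sequence were set apart. Of the 153 members whose mature sequences each belong to 1 locus in RefSeq, 47 rose (median 1.30), and of the 18 with a mature sequence at 2 or 3 loci 5 rose (median 1.02). Separate counts are uncertain for these last, among them *Mir125b-2*, *Mir128-1*, *Mir128-2*, *Mir181a-1*, *Mir181a-2*, *Mir92-2*, *Mir9-3*, *Mir16-1*, *Mir7-1*, *Mir199b* and *Mirlet7f-2*. Of hairpins in the reference table, 153 of 961 with sequences at 1 locus were members and 18 of 97 with a sequence at several loci were. The share of fragments in members at 1 locus was 1.02% ± 0.42 (SD, n = 3) in Ctrl and 3.39% ± 1.77 in *M*-cKO. The groups were only just apart, with 1.483% in *M*-cKO library 3 against 1.470% in Ctrl library 2. Of the members inside a gene on the same strand 25 of 88 tested rose (median 1.20), and of those outside 27 of 82 (median 1.29).

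Lists of microRNAs of other cell types held 16 members, of which 0 rose and 0 fell in *M*-cKO with edgeR (DESeq2 called 1, and 2 were called without *M*-cKO library 3), while 53 of the other 167 rose. Their median log2 fold change was 0.19, and -0.71 without *M*-cKO library 2. The fibroblast and meninges list (*Mir143*, *Mir199b* and *Mir145a* of 6) summed to CPM of 929.9, 1046 and 349 in Ctrl, 373, 2920.5 and 233 in *M*-cKO, with 229, 426 and 699.9 in *F*-cKO, so *M*-cKO library 2 was the highest and the other *M*-cKO libraries lay below Ctrl libraries 1 and 2. Its median log2 fold change was 0.57 with all 3 positive, and -1.30 with 0 positive without that library. *Col1a1*, a collagen gene of fibroblasts, had CPM of 2.58, 16.1 and 28.5 in the *M*-cKO libraries and 23.3, 43.3 and 29.4 in Ctrl. It is 1 of 9 messenger RNA markers looked up after the data were seen, of which 0 rose and 0 fell in Ribo-seq of *M*-cKO. The cell content of *M*-cKO library 2 was not tested. Without this library 36 members rose.

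The endothelium list (*Mir126a*, *Mir126b*) and the muscle list of 7 had no member. Erythroid *Mir144* had CPM of at most 1.70 and leukocyte *Mir150* of at most 5.56 in any library. *Mir192* and *Mir122*, of the liver list, summed to CPM of 60.3 to 216 in *M*-cKO and 71.7 to 173 in Ctrl. *Mir10a* and *Mir10b* of the Hox clusters, which are silent in cortex, summed to 309 in *F*-cKO library 2 and to 109 or less in every other library. *Mir203* of epidermis (summed CPM 2.66 to 6.38 in Ctrl, 5.06 to 19.8 in *M*-cKO) and *Mir204* of choroid plexus and eye (4.27 to 21.6 and 0.782 to 59.8) did not pass the test. The 5 members of the pituitary and sensory list, *Mir7b*, *Mir182* and *Mir183* among them, summed to 38.1 to 46.8 in Ctrl and 19.0 to 62.5 in *M*-cKO.

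For loss of *Fto*, 0 of 183 members passed edgeR's test against Ctrl, and across all genes the percentage called was 0 in both directions. At an unadjusted p below 0.05, 0 members were higher (1.58% of all genes) and 4 were lower (0.635% of all genes), and DESeq2 also called 0 members. The median log2 fold change over members was -0.28 with 69 positive, against 0.046 for all genes. Without Ctrl library 2 it was -0.02 with 86 positive, and without *F*-cKO library 2 it was -0.70 with 17 positive, and 0 members passed in any fit without 1 library. In none of the 185 members did all *F*-cKO libraries lie above Ctrl (4.33% of all genes did), and in 6 members (3.24%) they lay wholly below, against 3.28% of all genes: *Mir744*, *Mir181a-2*, *Mir125b-2*, *Mir181c*, *Mir503* and *Mir200b*.

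The members with the smallest p toward lower values were *Mir744* (CPM 17.5, 22.5 and 17.3 in Ctrl and 8.17, 13.9 and 12.4 in *F*-cKO, -0.73 ± 0.25, edgeR adjusted p = 0.73), *Mir503* (-1.61 ± 0.61) and *Mir184* (-2.54 ± 0.98). Toward higher values they were *Mir376b* (3.29 ± 1.64), *Mir139* (3.71 ± 1.85) and *Mir495* (1.95 ± 1.01). CPM of *Mir139* were 11.99, 12.4 and 5.35 in Ctrl and 1.17, 375 and 7.46 in *F*-cKO, so its value rests on library 2. Without that library the last 3 had log2 fold changes of -1.11, -1.17 and -0.23.

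Since both knockouts share the Ctrl libraries, *M*-cKO was also compared directly to *F*-cKO. With edgeR 0 of 182 members were called, as were 0% of all genes in both directions. At an unadjusted p below 0.05, 59 members (32.4%) were higher in *M*-cKO against 4.98% of all genes, and 0 were lower against 3.11% of all genes. The median log2 difference was 1.55 against -0.074 for all genes. Without *F*-cKO library 2 the number was 94 (7.30% of all genes) and the median 1.92, and without *M*-cKO library 2 it was 39 (2.56% of all genes) and 0.89, with 0 members called in either fit. DESeq2 called 37 members (and 172 genes in all) as higher in *M*-cKO, the fit of all 9 libraries called 9 of 20 genes, and the fit without *M*-cKO library 3 called 3. The smallest adjusted p were those of *Mir676*, *Mir532* and *Mir872* (edgeR adjusted p = 0.116 for each), with log2 differences of 3.25 ± 0.34, 3.04 ± 0.33 and 3.02 ± 0.32. In 37 members the lowest *M*-cKO library exceeded every library of Ctrl and *F*-cKO, as it did in 7.23% of all genes.

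The RNA-seq libraries, made from total RNA, held few reads at these loci, 122 to 251 per library in all. They were sequenced as paired reads far longer than a mature microRNA, per the study's methods. Their reads are thus not a measure of mature microRNAs. In 93 members there was no read in any of the 9 libraries, which allows up to 0.0159 CPM over them, and 15 members had more than 20 reads in total. Reads at a locus inside a host gene cannot be told from those of the host. With the filter on low counts, 5 members were tested in *M*-cKO and 0 passed, against 15.5% of all genes that rose and 14.1% that fell, and 4 were tested in *F*-cKO and 0 passed, against 11.5% and 9.57%. At an unadjusted p below 0.05, 3 of the 5 were lower in *M*-cKO (19.9% of all genes) and 0 higher (20.6%), and in *F*-cKO 1 of the 4 was lower (17.5%) and 0 higher (18.2%).

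*Mir99a*, the member with the highest mean CPM over the 9 Ribo-seq libraries, had RNA-seq reads of 22, 13 and 28 in Ctrl, 7, 12 and 10 in *M*-cKO, with 8, 7 and 14 in *F*-cKO. Every *M*-cKO library lay below every Ctrl library, as a log2 fold change of -1.19 ± 0.41 (edgeR adjusted p = 0.0507), and *F*-cKO gave -1.14 ± 0.43 (edgeR adjusted p = 0.0872). *Mir186*, within *Zranb2*, had 30, 35 and 36 reads in Ctrl and 24, 25 and 19 in *M*-cKO (-0.64 ± 0.27, edgeR adjusted p = 0.0962). *Mir7-1*, within *Hnrnpk*, had 28, 18 and 8 and 9, 11 and 5 (-1.14 ± 0.46, edgeR adjusted p = 0.0848). Without Ctrl library 2 *Mir99a* passed in *M*-cKO, and without Ctrl library 3 *Mir7-1* did. In *F*-cKO *Mir7-1*, *Mir186* and *Mir6991* had log2 fold changes of -0.43 ± 0.43, 0.26 ± 0.29 and 0.25 ± 0.27, none of which passed.

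Whether the change in short fragments differed from that in RNA-seq reads of the same locus was tested as the interaction of assay and genotype. In *M*-cKO 0 of 182 members passed, against 0.928% of all genes up and 1.19% down, and 14 (7.69%) were positive at an unadjusted p below 0.05, against 8.88% of all genes, with 0 negative against 11.2%. Most of the 182 had no RNA-seq read in the 6 libraries used, so most of these estimates carry no information. Their median standard error, derived from the fold change and the test statistic, was 960.5 on the log2 scale. For *Mir99a* the interaction was 3.25 ± 0.92 (edgeR adjusted p = 0.0824), and for *Mir186* 2.44 ± 0.83 (0.131). Without *M*-cKO Ribo-seq library 3, 7 members passed (3.85%), near the 3.16% of all genes that rose in that fit. In *F*-cKO 0 of 180 members and 0% of all genes passed in either direction, and 1 member was positive at an unadjusted p below 0.05 (3.6% of all genes) with 0 negative (4.1%).

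Transcripts that carry microRNAs were measured better. Of 13 listed primary transcripts, 10 were tested in Ribo-seq of *M*-cKO and 2 rose, *Mir670hg* (2.65 ± 0.71) and *Mir124a-1hg* (1.30 ± 0.28), and in RNA-seq 1 of 9 rose, *Mir670hg* (0.63 ± 0.19), where 7.13% and 15.5% of all genes rose. In RNA-seq of *F*-cKO 1 of 10 rose, *Mir124-2hg* (0.48 ± 0.064), and 1 fell. *Mirg*, at the end of the chromosome 12 cluster, had CPM in RNA-seq of 12, 12.5 and 12.5 in Ctrl, 12.9, 13.4 and 10.7 in *M*-cKO, with 8.34, 8.28 and 7.93 in *F*-cKO, and was the one that fell in *F*-cKO (-0.58 ± 0.11, edgeR adjusted p = 0.00898). *Rian* had 0.20 ± 0.24 and *Mirg* -0.0022 ± 0.12 in *M*-cKO RNA-seq, neither called, beside a median of 2.44 in fragments of the cluster's microRNA genes. *Mir99ahg*, whose annotated end lies before *Mir99a*, had -0.18 ± 0.12 (edgeR adjusted p = 0.278).

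Of 22 listed host genes of named members, 18 were tested, of which 2 rose and 3 fell in Ribo-seq of *M*-cKO, and 2 rose and 4 fell in RNA-seq. The shares of all genes were 7.13% up and 7.5% down in Ribo-seq and 15.5% and 14.1% in RNA-seq, and nothing is read from the small counts of this list. *Ift74*, host of *Mir872*, fell in both assays of *M*-cKO (-0.48 ± 0.13 in Ribo-seq and -0.33 ± 0.094 in RNA-seq), as did *Map2k4*, host of *Mir744* (-0.64 ± 0.11 and -0.30 ± 0.06), while both microRNA genes rose in Ribo-seq. *R3hdm1*, host of *Mir128-1*, fell in RNA-seq (-0.36 ± 0.083), as did *Clcn5*, host of *Mir532* (-0.26 ± 0.085). *Tmem164*, host of *Mir652*, and *Mcm7*, host of *Mir106b*, rose in RNA-seq by 0.36 ± 0.07 and 0.32 ± 0.083. The noncoding host of *Mir325*, *5330434G04Rik*, rose in Ribo-seq (2.03 ± 0.42) and had -0.18 ± 0.21 in RNA-seq.

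Of 24 listed genes of microRNA processing and silencing, 22 were tested in Ribo-seq of *M*-cKO, where 2 rose and 4 fell, against 7.13% and 7.5% of all genes. *Dgcr8*, the partner of Drosha, had CPM of 113, 115 and 96.7 in Ctrl and 78.97, 77.2 and 75.1 in *M*-cKO (-0.52 ± 0.095, edgeR adjusted p = 0.0178), and its RNA-seq count is listed as 1 read over all 9 libraries, so no RNA-seq value is given. *Xpo5*, the export factor, fell in Ribo-seq (-0.37 ± 0.10) and rose in RNA-seq (0.22 ± 0.064), *Ddx5*, a Drosha cofactor, fell in both (-0.51 ± 0.14 and -0.19 ± 0.057), and *Prkra*, a Dicer1 partner, fell in Ribo-seq (-0.42 ± 0.091). *Drosha* itself had -0.0082 ± 0.085 and *Dicer1* 0.14 ± 0.087 in Ribo-seq, neither called. In RNA-seq of *F*-cKO, *Xpo5* and *Ddx5* both rose (0.42 ± 0.056 and 0.24 ± 0.063).

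The genes of the silencing complex that rose in *M*-cKO in both assays were *Ago2*, the Argonaute that can slice its targets, and *Tnrc6c*, its GW182 partner. *Ago2* had CPM of 33.9, 32.4 and 28.7 in Ctrl and 40.7, 45.9 and 42.2 in *M*-cKO Ribo-seq (0.41 ± 0.10) and 0.32 ± 0.082 in RNA-seq, and *Tnrc6c* had 0.44 ± 0.099 and 0.61 ± 0.066. Both also rose in RNA-seq of *F*-cKO, *Ago2* by 0.55 ± 0.073 and *Tnrc6c* by 0.37 ± 0.059. In RNA-seq 6 of 21 tested genes of the list rose and 3 fell in *M*-cKO, and 11 rose and 1 fell in *F*-cKO, while Ribo-seq of *F*-cKO had 0 of 22. Of all genes in RNA-seq, 15.5% rose and 14.1% fell in *M*-cKO, with 11.5% and 9.57% in *F*-cKO. *Lin28b*, which blocks maturation of let-7, rose in RNA-seq of both knockouts (0.87 ± 0.24 in *M*-cKO and 0.74 ± 0.18 in *F*-cKO), with 1.52 ± 0.42 in *M*-cKO Ribo-seq (edgeR adjusted p = 0.0515).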

How the data were processed

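Ribo-seq and RNA-seq of E15.5 cortex were compared between Ctrl, *M*-cKO and *F*-cKO, grouped by the labels. The authors removed adapters, mapped Ribo-seq fragments with TopHat2 and RNA-seq reads with HISAT2 2.0.5 to mm10, and deposited raw counts per gene, for Ribo-seq made with HTSeq. The RPKM (Ribo-seq) and FPKM (RNA-seq) values that the authors deposited are scaled for gene length and library total. RPKM was used for levels per length and to recover counts of genes left blank, and FPKM was tabulated and not tested. How fragments at several loci were counted, and whether strand was used, is not given in the sources used here.

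Counts were tested with edgeR 4.0.16 in R 4.3.3 (quasi-likelihood test, TMM scaling, filterByExpr with a minimum count of 10 and total of 15, the 6 libraries compared, Benjamini-Hochberg over all genes, called at an adjusted p below 0.05). The difference between assays was an interaction term with scaling within each assay. Standard errors (±) of log2 fold changes were derived as the size of the change divided by the square root of the quasi-likelihood F statistic. The steps were tested on simulated data. Alternatives were DESeq2 1.42.0, RLE scaling, no filter, protein-coding scaling, all 9 libraries in 1 fit, a replicate block and leaving out each library. Named members were the 12 with the highest mean CPM, the 8 called with the smallest adjusted p per direction (or 3 not called, 4 in RNA-seq) and up to 3 per list. Other names were chosen with values seen. Members and lists were chosen with earlier results of these data known. Coordinates, hosts and sequences are from RefSeq (GRCm38.p6), which placed 172 members. p-values measure the spread between libraries labelled biological repeats.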

Additional observations from a re-analysis of the deposited data

Results flagged for a closer look

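*Mir181a-2* and *Mir181c* had values of opposite sign in the knockouts, with every *M*-cKO library above and every *F*-cKO library below Ctrl, a pattern of 2 of 185 members (1.08%) and of 0.265% of all genes. Taken apart, *M*-cKO lay wholly above Ctrl in 29.7% of members and *F*-cKO wholly below in 3.24%. Nothing is read from a count of 2. The separate count of *Mir181a-2* is uncertain, since *Mir181a-1* holds the same miR-181a-5p sequence. *Mir181a-2* had a log2 fold change of 3.42 in *M*-cKO and -0.72 in *F*-cKO, and *Mir181c* had 2.51 and -0.65. Compared directly, *M*-cKO minus *F*-cKO was 4.15 ± 0.70 for *Mir181a-2* (edgeR adjusted p = 0.299) and 3.18 ± 0.46 for *Mir181c* (edgeR adjusted p = 0.242), neither past the threshold.

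Some microRNA genes with blank counts, which entered no comparison, had whole counts that could be recovered from the deposited RPKM. All 1472 values above 0 of 329 such genes came out within 0.05 of a whole count. *Mir344f* had a mean CPM of 9.32 in *M*-cKO against 0.556 in Ctrl, *Mir448* 3.82 against 0.499, *Mir20b*, of the miR-17-92 paralogs, 1.55 against 0.564, and *Mir3475* 1.60 against 0.440. In each the *M*-cKO libraries lay wholly above Ctrl. These 4 were picked for that among the 10 blank genes with most recovered fragments, and in the other 6, *Mir483*, *Mir412*, *Mir376c*, *Mir194-2*, *Mir5100* and *Mir877*, they did not. Over the 329 genes, recovered fragments summed to CPM of 24.01, 31.68 and 24.9 in Ctrl, 85.1, 112.8 and 31.71 in *M*-cKO, with 15.6, 71.0 and 21.5 in *F*-cKO. Thus *M*-cKO lay above Ctrl, its library 3 by a small margin. It overlapped *F*-cKO through *F*-cKO library 2 alone, and lay wholly above *F*-cKO without that library. No test was run on these genes.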

How the results depend on the processing

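The mean microRNA share in Ctrl was 1.02% with members at 1 locus alone. In *M*-cKO it was 2.77% without *Mir99a*, 2.24 times Ctrl. In *F*-cKO it was 1.03% without *Mir99a*, 0.763% with members at 1 locus and 1.55% of the totals implied by RPKM. Members called in *M*-cKO vs Ctrl numbered 7 in the fit of all 9 libraries and 11 to 90 with 1 library left out. Between *M*-cKO and *F*-cKO, DESeq2 called 37, the fit of all 9 libraries 9, and fits without 1 library 0 to 3. In RNA-seq without a filter, 1 member was called in *M*-cKO (*Mir99a*) and 2 in *F*-cKO (*Mir149* and *Mir103-2*), and with 1 library left out 0 to 1 in *M*-cKO. The interaction in *M*-cKO called 0 to 7 with 1 library left out. Among the named members, signs turned in *M*-cKO, beside ranges without 1 library, for *Mir143* (-0.257 with the replicate block, -1.34 to 1.058), *Mir221* (-1.16 to 1.41), *Mir30a* (-0.67 to 1.02), *Mir199b* (-1.24 to 1.38), *Mir145a* (-1.30 to 1.57), *Mir9-3* (-0.70 to 0.014), *Mirlet7f-2* (0.023 with the block, -0.35 to 0.43), *Mir144* (-0.86 to 0.48), *Mir150* (0.20 with the block, -1.02 to 1.37), *Mir10b* (-1.27 to 0.48) and *Mir7b* (-0.0078 with the block, -0.17 to 0.47), and in *F*-cKO for *Mir376b* (-1.11 to 3.95), *Mir139* (-1.17 to 4.36) and *Mir495* (-0.23 to 2.51). The cause was not tested. Over the alternatives of 43 members, the 12 most abundant, those with the smallest p and those named from lists, 447 values in *M*-cKO Ribo-seq kept their side of the threshold, 36 lost the call, 11 gained it and 20 changed sign. Calls of whole lists changed as given in part beside them. DESeq2 called 3 of the miR-125/99/100 list, 4 of the miR-181 list and 2 of the miR-34 list, against 2, 3 and 1 with edgeR. It called 14 in the *Mir379* to *Mir369* cluster and 11 on chromosome X, against 11 and 10. Without *M*-cKO library 3, edgeR called 3 of the miR-17-92 list and 2 of the miR-34 list. Replicate numbers did not pair the libraries (correlations of deviations -0.277 to 0.182), and the block gave 60 members called in *M*-cKO against 53. Depth limits members near the Ribo-seq floor of 0.0837 to 0.273 CPM, which 3 counts make, and nearly all loci in RNA-seq.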
